A study of Bos taurus with 12 samples.

Results

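The m6A peaks described here were listed for bovine myotubes and overlapped no peak listed for proliferating myoblasts. They were selected on the readout itself. A row of the myotube (DM) peak list was taken when its exon blocks shared no base, on the same chromosome and gene strand, with the blocks of any row of the myoblast (GM) peak list. Of 20790 DM peaks, 5966 were chosen by this rule (28.7%, 95% Wilson interval 28.1% to 29.3%), and the other 14824 overlapped a GM peak. The 5966 myotube-only peaks lay in 4552 of the 11800 genes that had any DM peak. Their absence from the GM list is therefore how they were chosen and not a finding, and it does not show that the RNA was unmethylated in GM, and their enrichment values are given as a description, with no test.

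The series is an m6A-seq study of primary bovine myoblasts (Bos taurus, Qinchuan breed) isolated from newborn longissimus dorsi muscle. GM libraries came from proliferating cells harvested in growth medium with fetal bovine serum at 80% confluence, and DM libraries came from cells of the same kind after 4 days in differentiation medium with horse serum. Neither group carried a genetic change, a transfection or a drug. In m6A-seq, fragmented poly(A) RNA is pulled down with an antibody against m6A and sequenced (IP) next to RNA that was not pulled down (input), and each group had 3 IP and 3 input libraries. Peaks were given once per group, so a single peak has no replicate error. The methods name 1 newborn animal as the source of the cells, so p-values measure the spread between these libraries, which may be technical. Intervals on shares of peaks cover counting error only.

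All 10 skeletal muscle markers examined passed the level filter in the input RNA, among them DES (mean 453 FPKM in GM, 488 FPKM in DM) and the embryonic myosin MYH3 (273 and 659 FPKM). Of these 10, 3 were called higher in DM and 3 lower, the latter being the myogenic factors MYOD1 (61.6 to 24.8 FPKM) and MYF5 (11.8 to 2.25 FPKM) and the skeletal actin ACTA1 (110 to 70.0 FPKM), whose call was lost under another scaling and without GM replicate 3 or DM replicate 2. The differentiation markers MYOG (197 and 243 FPKM) and MYMK (41.1 and 47.3 FPKM) were already present in GM and were not called. None of these 10 markers had a myotube-only peak. Fibroblast genes were abundant in both groups (COL1A1, 6791 and 7420 FPKM), and 0 of the 7 that passed the filter were called changed by limma (4 at an unadjusted p under 0.05). Of the markers of other cell types found in the table, 0 of 7 endothelial, 1 of 5 leukocyte and 3 of 8 adipocyte genes passed the filter. The fibroblast, adipocyte, endothelial and leukocyte lists had 1, 2, 2 and 3 genes with a myotube-only peak, and 0 of these genes passed the filter. In bulk RNA of this kind, fewer cells of a type and less RNA per cell cannot be told apart.

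N6-methyladenosine is placed on messenger RNA in the nucleus by a writer complex built around METTL3 and METTL14, with WTAP and VIRMA as regulatory subunits. It can be removed by the demethylases FTO and ALKBH5, and it is bound by reader proteins such as the YTH and IGF2BP families, which affect the stability, splicing and translation of the RNA. The mark is known to gather around the stop codon and in the 3′UTR, and it has been studied in muscle for its part in the switch from dividing myoblasts to fused, contractile myotubes.

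MYOZ2, the Z-disc protein calsarcin-1, had a myotube-only peak, and the study had designed primers for its methylation. The peak spanned chr6:6119533-6135997 (ARS-UCD1.2) in 3 exon blocks with 269 exonic bases, was annotated 5′UTR and had a fold enrichment of 1.24 (IP over input) at a log10 FDR of -11.8, a pair of values that a DM peak of another gene also had. MYOZ2 had no row in the GM list, which was called once over pooled libraries, and no other DM peak. Whether its methylation differed between GM and DM was not tested here. The designed oligonucleotides are shown because they are the sequences with which methylation and abundance of this RNA were assayed, the first pair for PCR after m6A pull-down and the second pair for the mRNA level, each 5′ to 3′ in lower case.
MYOZ2-m6A-F: tcaccggaacgaattccact
MYOZ2-m6A-R: gcccatccttcagagagtcg
qMYOZ2-F: aacagagttgccaccccatt
qMYOZ2-R: ccatcccttcggagtcctatt
Whether the first pair lies inside the peak was not examined here, since no genome sequence was used. The input level of MYOZ2 was 34.0, 45.2 and 32.5 FPKM in the 3 GM libraries and 140, 133 and 162 FPKM in the 3 DM libraries. Every DM library lay above every GM library, and the difference was 1.95 ± 0.13 on the log2(FPKM + 1) scale (SE, limma, adjusted p = 9.85e-06). The low fold enrichment of the MYOZ2 peak stood beside an RNA level 3.85-fold higher on the log2(FPKM + 1) scale.

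The myotube-only peaks were mostly weak. Their median fold enrichment was 2.33, with quartiles of 1.60 and 4.79, against a median of 3.74 for the DM peaks that overlapped a GM peak. They were also short, with a median of 209 exonic bases against 569. A false discovery rate under 0.05 was met by 4396 of 5966 myotube-only peaks (73.7%) and by 94.9% of the overlapping DM peaks. With a fold enrichment of at least 2 required in addition, 2537 remained (42.5%). A log10 FDR below -50 was reached by 172 of them (2.88%), against 31.2% of the overlapping peaks, and 24 had an FDR so small that it was listed as minus infinity. The 2909 GM peaks that no DM peak overlapped had a median fold enrichment of 3.33 and a median length of 177 bases, so short and weakly supported peaks were found on both sides.

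**Figure D1:**
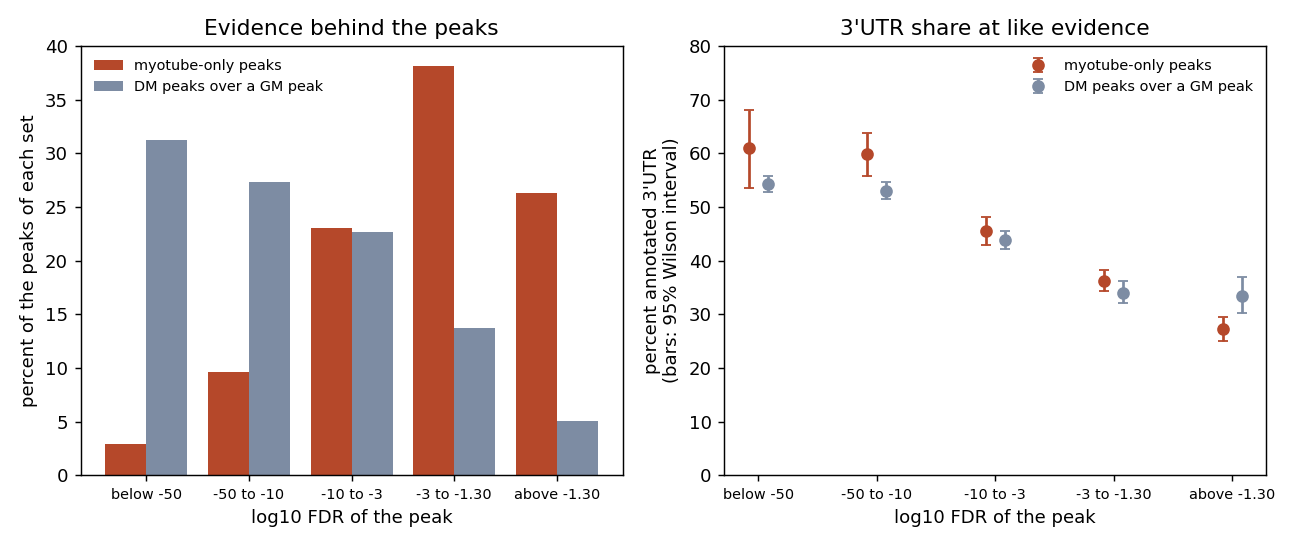
Left, percent of the 5966 myotube-only peaks and of the 14824 DM peaks over a GM peak in 5 classes of log10 FDR (more negative is stronger). Right, percent of the peaks of each class that were annotated 3′UTR, with 95% Wilson intervals. Myotube-only peaks gathered in the weaker classes, and the 3′UTR share fell with weaker evidence in both sets.

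The edge of the rule ran through peaks of like strength. Only 5 myotube-only peaks had a GM peak within 10 bases, with fold enrichments of 1.39 to 2.63 and a median of 1.94. On the other side of the rule, 196 DM peaks were counted as overlapping through at most 10 shared bases, with a median fold enrichment of 2.06 and a range of 1.11 to 19.2. A further 144 myotube-only peaks (2.41%) lay over a GM peak once the strand of the annotated gene was ignored.

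Peaks of high enrichment often had the values of other peaks. Of the myotube-only peaks with a fold enrichment of 10 or more, 302 of 364 (83.0%) had exactly the same fold enrichment and log10 p as a DM peak of some other gene. The same was true of 83.6% between 5 and 10, and of 17.6% below 1.5. Among the overlapping DM peaks it was 37.0% at 10 or more. The single most common value among the myotube-only peaks, 7.45, was shared by 240 peaks in 236 genes. These peaks lay in genes of low level, with a median of 0.168 FPKM for the hosts of peaks at 10 or more against 13.2 FPKM for those below 1.5. The read numbers behind a peak were not analysed here.

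**Figure D2:**
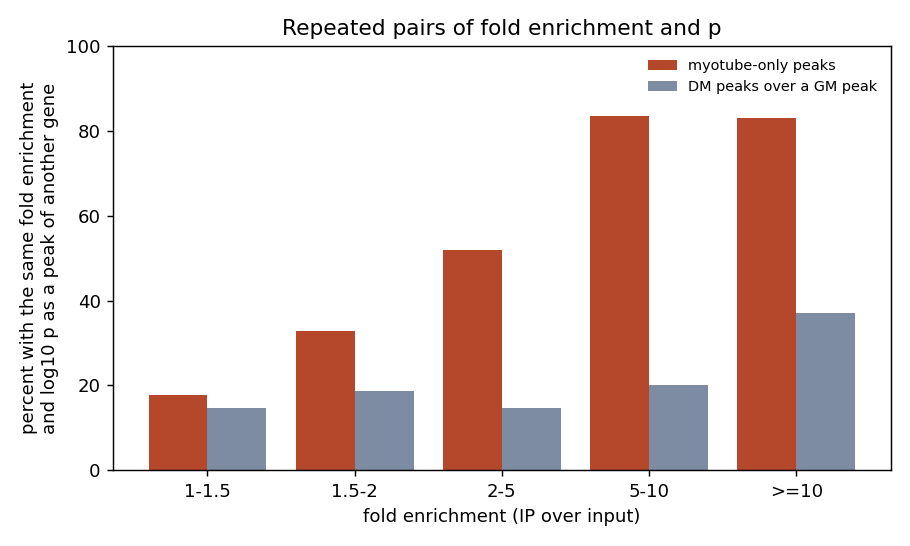
Percent of peaks whose pair of fold enrichment and log10 p was also that of a DM peak of another gene, by class of fold enrichment, for myotube-only peaks and for DM peaks over a GM peak. The share rose to 83.0% of the myotube-only peaks at a fold enrichment of 10 or more.

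Within transcripts, 2328 myotube-only peaks were annotated 3′UTR (39.0%, interval 37.8% to 40.3%), 2660 other exons (44.6%) and 978 5′UTR (16.4%). The DM peaks over a GM peak had more 3′UTR (47.8%) and fewer exon annotations (33.2%). This difference tracked the strength of the peaks. Among myotube-only peaks with a log10 FDR below -50, 61.0% were annotated 3′UTR (interval 53.6% to 68.0%), and the share was 59.9% between -50 and -10 (55.8% to 63.8%). The overlapping peaks had 54.3% and 53.1% in these classes. Above an FDR of 0.05 the order was the other way round, with 27.3% for the myotube-only and 33.5% for the overlapping peaks. Within the classes of strong evidence the 3′UTR share of the myotube-only peaks was thus not below that of the overlapping peaks, and most myotube-only peaks were in the weak classes, where exon annotations prevailed. Of the 2660 exon peaks, 669 were in the first exon of the gene and 613 in the last.

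Of the 4552 genes, 1901 (41.8%) had no GM peak at all and 2651 (58.2%) had one elsewhere. The 3612 peaks in the latter genes lay at a median of 1322 bases of genome from the nearest GM peak on their strand, and 397 of them within 100 bases. In 2392 genes a myotube-only peak stood beside a DM peak that overlapped a GM peak. In 1817 of these (76.0%) the strongest myotube-only peak had the lower fold enrichment, with medians over genes of 2.25 and 4.50. A peak found only in GM was present in 762 of the 4552 genes (16.7%), which is 32.5% of the 2347 genes with such a peak.

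Most genes had 1 myotube-only peak (3509 genes, 77.1%), and 22 had 5 or more. The largest number, 12, was in FAT3, a giant atypical cadherin, whose input level was low in every library (0.0711, 0.0699 and 0.108 FPKM in GM and 0.257, 0.175 and 0.221 FPKM in DM). FAT3 peaks had fold enrichments of 2.56 to 27.7, and the gene did not pass the level filter. NEB, the nebulin gene of the thin filament, had 9, of which 7 had fold enrichments of only 1.09 to 1.21. The exceptions in NEB were chr2:44434401-44442179 (fold enrichment 2.10) and chr2:44515093-44517610 (2.00, log10 FDR -29.3), the former annotated to the first exon and the latter to an internal one. SYNE2, TACC2 and EPPK1, which code for a nuclear envelope spectrin-repeat protein, a centrosomal protein and a plakin, had 7 each. Every EPPK1 pair of fold enrichment and p was found in another gene. So were all TACC2 pairs except that of the peak at 5.86, and some of SYNE2.

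The level of the host gene went with the kind of peak. Genes below 0.1 FPKM had a median fold enrichment of 7.45 in their 544 myotube-only peaks, and 56.6% of these peaks had an FDR under 0.05. At 100 FPKM and above the median was 1.63, and 93.4% of the 181 peaks passed. The share of genes with a myotube-only peak moved between 24.9% and 33.6% over all classes from 0.1 FPKM upwards. In the class of 0.5 to 1 FPKM most of these genes had a GM peak elsewhere, and at 100 FPKM and above 86 of 154 had none. These points share their libraries and are not independent replicates.

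**Figure D3:**
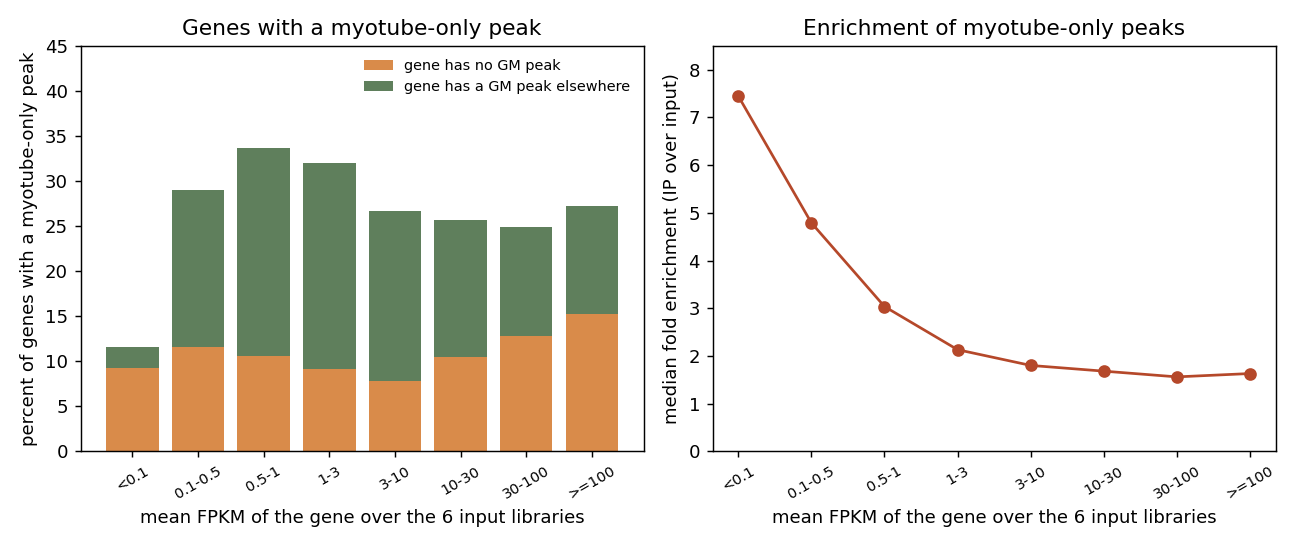
Left, percent of genes in each class of mean input FPKM that had a myotube-only peak, split into genes without any GM peak and genes with one elsewhere. Right, median fold enrichment of the myotube-only peaks of these genes, which fell from 7.45 below 0.1 FPKM to 1.63 at 100 FPKM and above.

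A subset of the myotube-only peaks was well supported in genes that were measured in both states. At an FDR under 0.05, a fold enrichment of at least 2 and a gene level of at least 1 FPKM in both groups, 1288 peaks in 1166 genes remained, and 484 of them were in genes without any GM peak. Of these 484, 375 peaks in 355 genes had a pair of fold enrichment and p not found in another gene, and 226 of the 375 (60.3%) were annotated 3′UTR. Of the 355 genes, 13 were called higher in DM (3.66%, against 4.90% of all genes tested by the test described further on) and 23 lower (6.48%, against 6.97%).

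The peaks named in this paragraph were chosen after their values were seen, from those of lowest p in that subset that did not lie over a GM peak of the opposite strand. ANXA5, which codes for the phospholipid-binding protein annexin A5, had a 450-base 3′UTR peak at chr6:3590072-3590521 with a fold enrichment of 2.30. ARPC2, a subunit of the actin-nucleating complex Arp2/3, had a 3′UTR peak at chr2:106283983-106284396 (2.56). The FDR of both was listed as minus infinity. RCN1, a calcium-binding protein of the endoplasmic reticulum, had one at chr15:62867192-62867520 (2.75, log10 FDR -243). All of these RNAs were abundant in both states. ANXA5 stood at 855, 809 and 736 FPKM in GM and at 930, 943 and 953 FPKM in DM, a difference of 0.24 ± 0.06 (SE, log2 scale, limma, adjusted p = 0.0174) that was under the fold required for a call. The groups did not overlap for ANXA5 although the shift was small. TGFBR1, the type I receptor for TGF-beta, had a peak of 4 blocks at chr8:64161112-64179096 with a fold enrichment of 4.11 and a log10 FDR of -242. Its input level was 29.4, 33.2 and 30.8 FPKM in GM and 29.9, 28.4 and 29.2 FPKM in DM, so the groups overlapped. RPL15, a protein of the large ribosomal subunit, had a 3′UTR peak at chr27:42051425-42051870 with a fold enrichment of 7.06 (log10 FDR -180). Its level was 287 ± 20.3 FPKM in GM and 223 ± 12.8 FPKM in DM (SD, n = 3).

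In other abundant RNAs, all but TPM1 named after their values were seen, the myotube-only peak was an additional one. CDV3 had such a peak in its 3′UTR (chr1:135867529-135868243, fold enrichment 7.75), and the same was seen for EZR, the membrane-to-actin linker ezrin (chr9:95156300-95156838, 3.07), and for APP, the amyloid precursor protein (chr1:10543744-10543984, 4.31). The FDR of these peaks was listed as minus infinity, and each gene also had a DM peak that overlapped a GM peak. TPM1, the actin-binding tropomyosin of thin filaments, had a 510-base 3′UTR peak at chr10:46993261-46993770 (2.29) beside 2 overlapping DM peaks. MYH9, non-muscle myosin heavy chain IIA, had one at chr5:74719956-74720524 (2.65, log10 FDR -117). None of these 5 genes was called changed in input RNA. EZR stood at 251 ± 4.25 FPKM in GM and 253 ± 9.76 FPKM in DM, and MYH9 at 353 ± 3.39 and 352 ± 5.21 FPKM (SD, n = 3).

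Several of the strongest peaks could not be assigned to a gene with this certainty. Of the 172 myotube-only peaks with a log10 FDR below -50, 42 (24.4%) lay over a GM peak annotated to a gene on the opposite strand, as did 8 of the 24 listed at minus infinity. INHBA, the activin A subunit, was one of them (chr4:79288772-79301221, 2598 exonic bases, fold enrichment 7.95). PRIMPOL, a primase-polymerase, and SAFB2, a nuclear matrix protein, had peaks of this kind that ran over 5 and 21 exon blocks. The libraries were made strand-specific, and whether the peak caller used strand was not given in the sources used here. For these peaks a myotube-only status holds on the annotated strand only.

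The second question was whether genes with a myotube-only peak changed their RNA level. Input FPKM values of 12302 genes were compared between 3 DM and 3 GM libraries with limma, and a call needed a fold over 1.5 on the log2(FPKM + 1) scale together with p under 0.05 before adjustment. These input libraries also served as the peak caller's control, so the level is not fully independent of the peaks. Of the 4552 genes, 4485 were in the expression table and 3402 passed the level filter. Of these, 185 (5.44%, interval 4.73% to 6.25%) were called higher in DM, against 4.90% of all genes tested, and 217 (6.38%, 5.61% to 7.25%) were called lower, against 6.97%. The median log2 difference was -0.04 for the genes with a myotube-only peak and -0.05 for all genes. Genes without any GM peak gave 62 higher (5.08%) and 94 lower (7.70%) of 1220. Both shares were near those of all genes tested. With library-wise TPM scaling in place of FPKM, higher calls made up 57.9% of the called genes instead of 46.0%, and the median of all genes moved from -0.05 to 0.06.

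Genes whose group mean was below 0.5 FPKM in GM and not in DM made up a small part. Of the 4485 genes, 1111 (24.8%) were below 0.5 FPKM in GM. Of these, 114 were at or above it in DM and 997 were below it in both. A further 111 were below it in DM only, and 3263 were at or above it in both. By size of change, 14 of the 34 tested genes that rose over 4-fold had a myotube-only peak (41.2%, interval 26.4% to 57.8%), as did 69 of 202 that rose 2- to 4-fold (34.2%, 28.0% to 40.9%), against 27.7% of all tested genes. Among genes that fell over 4-fold it was 12 of 53 (22.6%, 13.5% to 35.5%), so the intervals of both extreme classes took in the overall share, and that of the 2- to 4-fold rise lay just above it.

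The 10 largest rises among called genes with a myotube-only peak at an FDR under 0.05 were GNAS, TMEM182, TNFSF18, PPP1R3A, CFB, REEP1, OTULINL, CSRP3, SQLE and SFRP1. PPP1R3A, the glycogen-targeting subunit of protein phosphatase 1 in muscle, rose from 0.800, 1.08 and 0.750 FPKM in GM to 9.39, 9.43 and 9.45 FPKM in DM. All DM libraries were far above all GM libraries (2.48 ± 0.08, SE, log2 scale, limma, adjusted p = 3.39e-07). Its peak lay in an exon at chr4:54551942-54552691 with a fold enrichment of 2.35 and a log10 FDR of -32.3, and the gene also had 3 GM peaks. CSRP3, the muscle LIM protein of the Z-disc, stood at 2.94, 2.73 and 3.10 FPKM in GM and at 21.4, 15.1 and 20.1 FPKM in DM (2.33 ± 0.12). It had 2 myotube-only peaks and no GM peak, and the stronger was in the 3′UTR at chr29:25764705-25764911 (1.97, log10 FDR -12.8). TNFSF18, a ligand of the tumour necrosis factor family, had 3 such peaks in its 3′UTR (1.12 to 6.74) and rose from 8.13 ± 0.729 to 61.8 ± 3.60 FPKM (SD, n = 3). For GNAS, the stimulatory G protein subunit, both listed peaks were 1 row that was repeated. Its input level was 0.746, 0.531 and 0.833 FPKM in GM and 10.98, 14.24 and 10.78 FPKM in DM. The peak (359 bases, 1.89) had a log10 p of -961 from the peak caller. That was lower than for the TPM1 peak (510 bases, 2.29, log10 p -545), whose gene stood at 881 FPKM in DM. Whether the FPKM record of GNAS and the reads of its peak describe the same RNA was not tested. The rise is therefore given for the FPKM record only. All peaks of these 10 genes were in the 3′UTR except the exon peak of PPP1R3A and a 5′UTR peak of CSRP3.

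Among the well-supported peaks in genes without a GM peak, SERPINF1 and FAP rose. These 2 genes and CDKN1C were named after their values were seen. SERPINF1, the secreted pigment epithelium-derived factor, stood at 232, 223 and 235 FPKM in GM and at 844, 864 and 814 FPKM in DM (1.86 ± 0.05, SE, log2 scale, limma, adjusted p = 2.05e-07). Its 3′UTR peak at chr19:22859674-22859852 had a fold enrichment of 2.21 and a log10 FDR of -127. FAP, a membrane-bound serine protease, stood at 38.7, 39.9 and 34.0 FPKM in GM and at 109, 93.6 and 112 FPKM in DM. Neither gene's groups overlapped, and the FAP peak, at chr2:34271102-34271400, had a fold enrichment of 3.47. CDKN1C, the cell-cycle inhibitor p57, went the other way, with 88.2, 102 and 90.7 FPKM in GM against 51.5, 46.2 and 51.7 FPKM in DM, beside a 3′UTR peak of 2.05 (log10 FDR -44.9). POSTN, the matrix protein periostin, also fell, from 273 ± 19.9 to 132 ± 11.6 FPKM (SD, n = 3), while its peak of 5 blocks had a log10 FDR of -205.

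**Figure D4:**
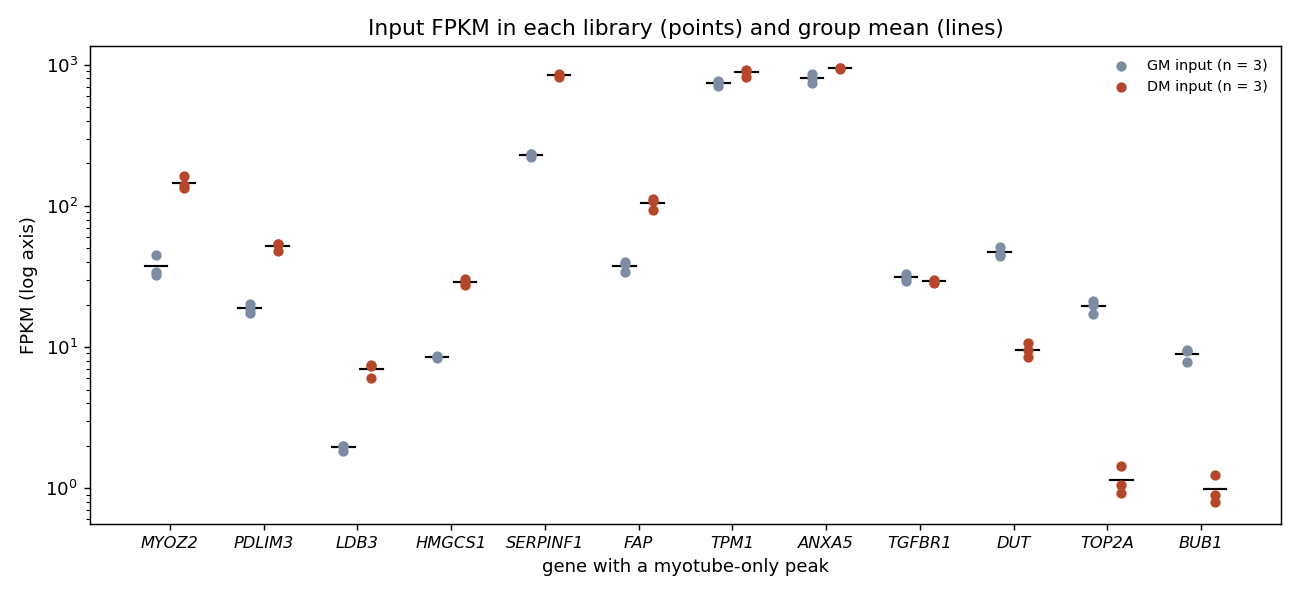
Input FPKM of 12 genes with a myotube-only peak in each of the 3 GM and 3 DM libraries (points; lines are group means), on a log axis. DM lay above GM for MYOZ2, PDLIM3, LDB3, HMGCS1, SERPINF1 and FAP and slightly above it for TPM1 and ANXA5, the groups overlapped for TGFBR1, and DM lay below GM for DUT, TOP2A and BUB1.

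The 10 largest falls under the same limit on peaks were KIF20A, TOP2A, CENPF, BUB1B, DLGAP5, BUB1, DUT, CEP55, KNL1 and CENPE, nearly all of them genes of chromosome segregation and cytokinesis. KIF20A, a kinesin of the dividing cell, fell from 18.5, 17.9 and 16.3 FPKM in GM to 0.545, 0.968 and 0.537 FPKM in DM (-3.47 ± 0.11, SE, log2 scale, limma, adjusted p = 2.80e-07). TOP2A, the topoisomerase that untangles chromosomes, stood at 20.0, 21.2 and 17.2 FPKM in GM against 0.920, 1.44 and 1.05 FPKM in DM. No DM library reached the lowest GM library in either gene. The KIF20A and TOP2A peaks lay 72 and 90 bases from a GM peak, and those of CENPF 60 and 30 bases. With a GM peak within 100 bases counted as shared, these peaks would not be myotube-only. The TOP2A pair of fold enrichment and p was also found in another gene. The same held for every peak at an FDR under 0.05 in CENPF, BUB1B, DLGAP5, CEP55, KNL1 and CENPE. The peaks of BUB1B and DLGAP5 only just met that limit (FDR 0.0447 each). BUB1, a kinase of the spindle checkpoint, had no GM peak although its level was 8.93 ± 0.967 FPKM in GM against 0.980 ± 0.236 FPKM in DM (SD, n = 3). Its 2 myotube-only peaks were in the 3′UTR, with fold enrichments of 1.58 and 4.26, and both pairs of enrichment and p were found in other genes too. DUT, the enzyme that removes dUTP, was the best supported of the 10 (chr10:62059579-62060678, 2.94, log10 FDR -10.3) and fell from 46.9 ± 3.60 to 9.60 ± 1.05 FPKM. A myotube-only peak was therefore listed in RNAs that were scarcer in myotubes than in myoblasts.

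Gene lists were examined next, each by its counts beside those of the whole list. Peaks of any FDR were counted. An FDR under 0.05 was met by 20 of 28 sarcomere, 8 of 9 calcium and 16 of 18 myogenic regulator peaks. It was met by 16 of 19 DNA replication, 23 of 34 mitosis, 13 of 15 sterol and 36 of 43 matrix peaks. For m6A machinery, growth factor, Wnt and Notch, and interferon peaks it was 9 of 10, 13 of 19, 23 of 30 and 6 of 11. Of the sarcomere and contraction list, 14 genes had 28 myotube-only peaks (median fold enrichment 1.66), 19 of which were in exons outside the UTRs. Of these 14 genes 8 rose and 0 fell, and in the whole list 35 of 58 tested genes rose and 1 fell. PDLIM3, a Z-disc PDZ-LIM protein without any GM peak, stood at 17.5, 18.7 and 20.3 FPKM in GM and at 53.4, 47.5 and 53.8 FPKM in DM (1.41 ± 0.07, SE, log2 scale, limma, adjusted p = 2.86e-06). Its 3′UTR peak at chr27:15713090-15713386 had a fold enrichment of 1.68 and a log10 FDR of -31.9. LDB3, another Z-disc PDZ-LIM protein, had a peak of 3 blocks at chr28:41373151-41383064 with a fold enrichment of 4.04 and a log10 FDR of -98.7. In this list only the TPM1 peak had a lower FDR. The level of LDB3 rose from 1.94 ± 0.0994 to 6.95 ± 0.814 FPKM (SD, n = 3). MYBPC1, slow myosin-binding protein C, had 3 peaks and no GM peak, but was nearly absent from GM RNA (0.0730, 0.0197 and 0 FPKM) and reached 1.23, 1.62 and 1.55 FPKM in DM. The MYBPC1 peaks had FDR values of 0.0794, 0.0692 and 0.0398, and each pair of fold enrichment and p was found in another gene. MYOT, the Z-disc protein myotilin, rose from 9.26 ± 0.466 to 44.2 ± 2.04 FPKM with a single exon peak of 1.11. TPM1, NEXN, MYOM1, NRAP, MYBPC2 and MYH6 were not called.

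For excitation-contraction coupling and calcium, 7 genes had a myotube-only peak, and 3 of the 5 tested rose (RYR1, HRC and KCNMA1), against 10 of 29 in the list. RYR1, the calcium release channel of the sarcoplasmic reticulum, had 2 exon peaks (1.46 and 1.82) and rose from 1.16 ± 0.0363 to 4.38 ± 0.0873 FPKM (SD, n = 3). Of the myogenic regulators, 14 genes had a peak. ID3, an inhibitor of basic helix-loop-helix factors, and HES1, a Notch target, fell, and CASZ1, a zinc finger factor, rose, the other 9 tested being not called, and in the list as a whole 7 of 48 rose and 15 fell. ID3 stood at 97.9, 102 and 107 FPKM in GM and at 30.7, 28.3 and 32.3 FPKM in DM, with a 61-base 3′UTR peak of 1.65. MEF2A, a transcription factor of muscle genes, had the strongest peak of this list, in the 3′UTR at chr21:6860316-6860616 (2.98, log10 FDR -19.5), and its level was 16.6 ± 2.82 FPKM in GM and 21.8 ± 2.07 FPKM in DM (SD, n = 3).

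In the lists of dividing cells every called gene was lower in DM. Of 24 mitosis and G2/M genes with a myotube-only peak, 23 fell and 0 rose, and in the list as a whole 59 of 61 fell. CKAP5, a microtubule polymerase, was the one not called. These genes had 34 peaks with a median fold enrichment of 2.94, and 26 of the 34 had a pair of fold enrichment and p that was found in another gene. For DNA replication and S phase, 15 genes had a peak and 9 fell, against 26 of 52 in the list, the call of MCM7 being lost under another scaling. PRIM2, one of those not called, lay higher in DM (5.67 ± 0.193 FPKM in GM, 7.76 ± 0.591 FPKM in DM, SD, n = 3). MCM4, a subunit of the replicative helicase, had no GM peak and fell from 10.1 ± 0.487 to 4.97 ± 0.583 FPKM (SD, n = 3), with a 3′UTR peak at chr14:19562685-19563132 (3.98). TYMS, thymidylate synthase, fell from 21.9 ± 0.850 to 10.5 ± 0.643 FPKM.

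In sterol and fatty acid synthesis, 12 genes had a myotube-only peak, 9 of the 15 peaks being in the 3′UTR. Of the 11 tested, 6 rose (among them IDI1, SQLE, MSMO1 and HMGCS1) and 1 fell (ABCA1, a cholesterol exporter), while 16 of 32 rose in the list. HMGCS1, which makes HMG-CoA, stood at 8.54, 8.57 and 8.34 FPKM in GM and at 28.7, 30.1 and 27.7 FPKM in DM (1.65 ± 0.05, SE, log2 scale, limma, adjusted p = 3.31e-07). Its peak was in the 3′UTR at chr20:31453967-31454536 (2.04, log10 FDR -45.8). HMGCS1 also had a DM peak shared with GM. MSMO1 and IDI1, later enzymes of the pathway, had no GM peak, with fold enrichments of 1.51 (log10 FDR -35.8) and 1.52. ACLY, which makes cytosolic acetyl-CoA, had a 3′UTR peak of 2.42 at a level of 36.0 ± 1.14 FPKM in GM and 36.1 ± 2.33 FPKM in DM (SD, n = 3), where the groups overlapped.

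Of the 11 pathway lists, extracellular matrix had the largest share of tested genes with a myotube-only peak, 24 of 55 tested genes (43.6%) against 27.7% of all tested genes, a description without a test. Of these 24, 12 rose and 3 fell (POSTN, ADAMTS4 and VCAN), and in the whole list 16 rose and 8 fell. Fold enrichments were low, with a median of 1.5 over 43 peaks, of which 25 were in exons outside the UTRs. COL3A1, the chain of type III collagen, had 3 exon peaks of 1.10 to 1.31 and no GM peak at 2397 ± 43.0 FPKM in GM and 3135 ± 163 FPKM in DM (SD, n = 3), and it was not called. COL5A2, a chain of type V collagen, had 4 of 1.04 to 1.24. At this abundance a peak of 1.24 reached a log10 FDR of -258. NID1, the basement membrane protein nidogen-1, had a 3′UTR peak of 1.5 and rose from 98.7 ± 2.72 to 218 ± 5.57 FPKM.

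**Figure D5:**
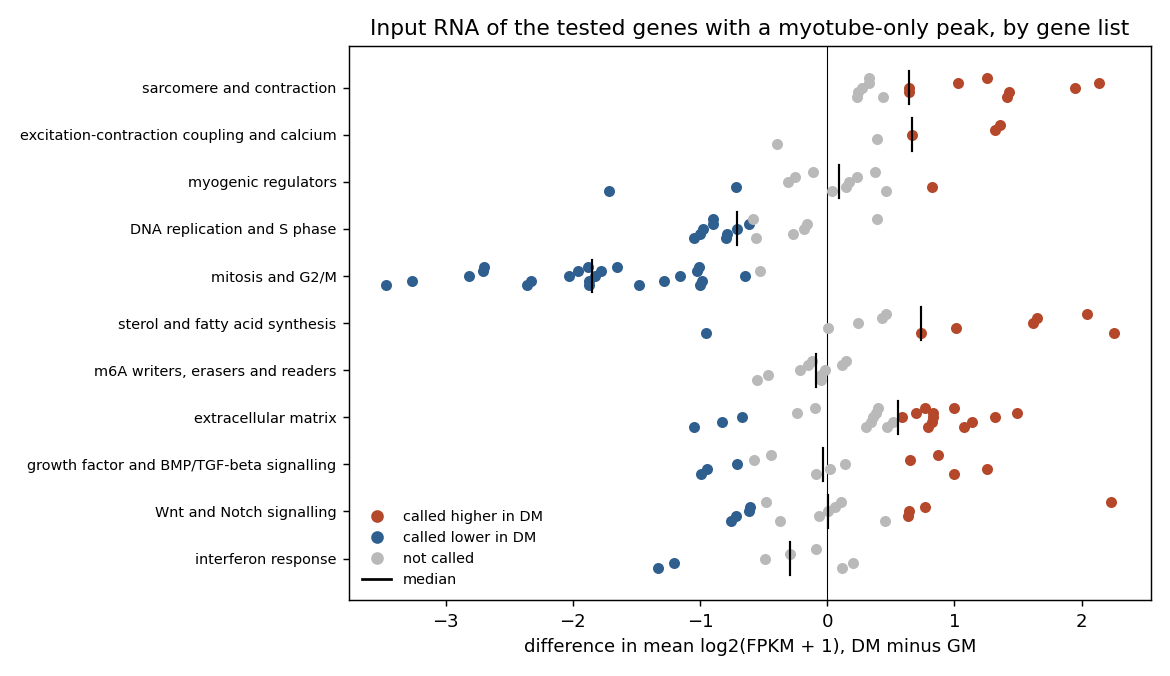
Difference in mean log2(FPKM + 1), DM minus GM, of each tested gene with a myotube-only peak, by gene list; colour gives the call and the black line the median. The 14 sarcomere genes lie above 0 with 8 called higher, and 23 of the 24 mitosis and G2/M genes were called lower.

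Signalling lists were mixed. Of the growth factor and BMP/TGF-beta list, 16 genes had a peak, and 4 rose (INHBA, BMP4, BMP6 and FGF2) and 3 fell (SMAD6, SMAD9 and PDGFA) of 12 tested, against 10 and 16 of 57 in the list. The peaks of BMP4, SMAD9 and PDGFA missed an FDR of 0.05 (0.120, 0.121 and 0.0871). In the Wnt and Notch list, 21 genes had one, with 4 rising and 4 falling of 15, against 10 and 9 of 46 in the list. The falls of FZD3, a Wnt receptor, and DLL1, a Notch ligand, were no longer called under another scaling. CTNNB1, the Wnt effector beta-catenin, had no GM peak and a 3′UTR peak of 1.79 at chr22:13844739-13845370 (log10 FDR -119). It stood at 87.2 ± 2.81 FPKM in GM and at 149 ± 2.15 FPKM in DM (SD, n = 3), and no values of the groups overlapped (0.77 ± 0.05, SE, log2 scale, limma, adjusted p = 6.64e-06). SFRP1, a secreted Wnt antagonist, rose from 0.628 ± 0.0843 to 6.65 ± 0.272 FPKM (SD, n = 3). Of 11 interferon response genes with a peak, MX1 and IRF1 fell and 0 of the 7 tested rose (5 at an unadjusted p under 0.05 by limma in either direction), against 1 rise and 6 falls among 30 in the list.

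The m6A machinery itself had 10 genes with 1 myotube-only peak each, 4 of them without any GM peak (IGF2BP2, METTL5, ZCCHC4 and ALKBH5). They were 37.0% of the 27 tested genes of this list, against 27.7% of all tested genes. In input RNA 0 of these 27 genes were called by limma, while 12 had an unadjusted p under 0.05. Of all genes tested, 4.90% were called higher and 6.97% lower. METTL3, the catalytic writer, had an exon peak of 1.48 at chr10:25672128-25672336 and a level of 10.1, 9.39 and 8.85 FPKM in GM and 9.15, 8.77 and 9.35 FPKM in DM. The groups overlapped for METTL3 and also for WTAP, whose 3′UTR peak had a fold enrichment of 2.34. HNRNPA2B1, a nuclear RNA-binding protein, had the best supported peak (chr4:69743678-69744610, 3′UTR, 2.79, log10 FDR -108). Its level was 392 ± 30.1 FPKM in GM and 266 ± 3.33 FPKM in DM (SD, n = 3), a fall of 1.47-fold that missed the fold required for a call. ALKBH5, the demethylase, had a 3′UTR peak of 1.36, and IGF2BP2, a reader, one of 3.78 in the 5′UTR.

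The largest fold enrichments at an FDR under 0.05 in tested genes belonged to RNF219 (45.8, 3′UTR, chr12:53756338-53756963), MON1A (43.7), UQCC1 (34.1), TCFL5 (31.9), PPP1R9A (25.6), CRTC3 (24.5), TRIB2 (22.9), GIPC1 (22.4) and THBS4 (21.3), and to a copy of the RNA family RF00100 (24.5). RNF219 stood at 2.53, 3.17 and 2.34 FPKM in GM and at 2.18, 1.91 and 2.11 FPKM in DM, so DM lay a little below GM. Of these 10 genes THBS4, a thrombospondin of the matrix, was called higher and RF00100 lower, and the others were not called. The RF00100 copy stood at 2.51, 1.69 and 0.129 FPKM in GM and at 0, 0 and 0.279 FPKM in DM, so the groups overlapped, and its call was lost after adjustment (limma, adjusted p = 0.054). All but RF00100 also had a GM peak elsewhere, which lay 90 bases from the PPP1R9A peak. For TCFL5, PPP1R9A, CRTC3, GIPC1 and THBS4 the pair of fold enrichment and p was found in another gene. Among genes without any GM peak, at 1 FPKM or more in both groups and not called, the largest were TIPRL (19.2), RF00003 (15.2), SLC6A2 and EIF4H (13.8 each), and PMPCB, ALDOA and RRM2B (12.8 each). They were followed by VKORC1, IQCB1 and SURF2 (11.7 each). The ALDOA peak, in the gene of the glycolytic enzyme aldolase A, covered 90 bases of 5′UTR at a level of 447 ± 25.4 FPKM in GM (SD, n = 3). All 10 except RF00003 and PMPCB had a pair of fold enrichment and p that was found in another gene.

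Small structural RNAs had 71 myotube-only peaks (1.19%) in genes named only by an Rfam family, 63 of them at an FDR under 0.05. Such genes also held 0.756% of the overlapping DM peaks and 0.722% of the GM peaks that no DM peak overlapped. The most frequent were RF00026 (the U6 family, 11 peaks), RF00100 (7SK, 8 peaks) and RF00017 (signal recognition particle RNA, 7 peaks). Several had high enrichment, such as an RF00017 copy at chr8:98676196-98676495 with a fold enrichment of 5.03 and a log10 FDR of -199. The input level of that copy was 79.8, 85.4 and 1.91 FPKM in GM and 2.01, 14.4 and 51.1 FPKM in DM. The libraries of each group differed widely and the groups overlapped. These families have many near-identical copies, so their reads cannot be assigned to one copy with certainty.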

How the data were processed

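m6A-seq peak lists of GM and DM and the FPKM values of the 6 input libraries were used (12 libraries in all, 3 per group). The authors trimmed reads, aligned them to ARS-UCD1.2 with HISAT2, kept unique, non-duplicate reads, and called peaks with exomePeak and annotated them with ChIPseeker, once per group over its libraries. The submitters' processing notes also name HOMER, cutadapt and fastp, and tool versions were not given in the sources used here. The deposited fold enrichment is the linear ratio of IP to input in a peak. The deposited p-value is unadjusted, with its FDR given by the authors as log10 values. FPKM values were computed by the authors with StringTie for 18436 genes. The study lists the reads of each library, and these were not used here.

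Overlap was computed between exon blocks in Python 3.11.15 with pandas 2.3.3. Expression was tested with limma 3.58.1 in R 4.3.3 on log2(FPKM + 1), two-sided, with a variance trend, over genes whose mean reached 0.5 FPKM, and adjusted p-values are Benjamini-Hochberg over 12302 genes. The script was tested on simulated data. Intervals are Wilson at 95%. A tie means exactly equal deposited fold enrichment and log10 p.

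The members and the gene lists were chosen with earlier results of these data known. Genes named by rules set beforehand were the 10 peaks of largest fold enrichment, the 10 largest rises and falls, the 10 largest enrichments in uncalled genes without a GM peak, the 5 genes with the most peaks, and list members. Other genes were named after their values were seen, among them those marked so in the text. Primer sequences came from the study's supplementary tables. Alternatives covered overlap, peak thresholds, strand, pseudocount, level filter, scaling, fold, adjustment, block and left-out libraries. A member of a gene list is not reported here.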

Additional observations from a re-analysis of the deposited data

How the results depend on the processing

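Requiring a fold enrichment of at least 2 left 3503 myotube-only peaks in 2850 genes, with 42.79% exon and 18.56% 5′UTR annotations. With an FDR under 0.05 required in both lists, 42.36% were annotated 3′UTR and 41.96% exon. Over the other overlap and threshold settings the number of peaks ran from 4396 to 8805, and ignoring strand, a setting chosen after seeing the data, gave 5822. In the expression test, TPM scaling gave 285 genes called higher (8.38%, against 7.88% of all genes tested). A fold over 2 gave 83 higher (2.44%, against 1.89%) and 75 lower (2.20%, against 2.24%). Restricting to peaks at an FDR under 0.05 and a fold enrichment of at least 2, also chosen after seeing the data, gave 86 higher and 104 lower, since fewer genes entered. These were 5.84% and 7.06% of the tested genes with such a peak, against 4.90% and 6.97% of all genes tested. Leaving out 1 library at a time gave 174 to 192 higher (5.11% to 5.64%, against 4.89% to 5.09% of all genes tested). It gave 217 to 237 lower (6.38% to 6.97%, against 6.97% to 7.30%). With the replicate number as a block, 185 were higher (5.44%, against 4.94%) and 217 lower (6.38%, against 7.03%), the same counts as without it. Same-numbered libraries did not deviate together (r of -0.08, -0.12 and -0.21 across genes), so the numbers were not taken as pairs. For why the other counts moved, the cause was not tested.

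The calls of 132 genes, which include each called gene named here, were followed under every expression setting, and none reversed. A fold over 2 ended 64 of them. Of the genes named in the text, VCAN, MCM7, FZD3 and ACTA1 lost their call under TPM scaling, MCM7, DLL1, FZD3 and ACTA1 under size factors, and 1 RF00100 copy with adjusted p. Calls of genes named above, or only counted as called in a gene list, were also lost without single libraries. Without a GM library these were NID2 and RF00100 (replicate 1), FZD3 and RF00100 (replicate 2) and FGF2, NID2, FZD9 and ACTA1 (replicate 3). Without a DM library they were RF00100 (replicate 1), NID2, MCM7, RF00100 and ACTA1 (replicate 2) and FGF2, FZD6 and MYOZ1 (replicate 3). Peaks were called on pooled libraries, so none of their values carries a replicate error. Whether read depth, which the study lists for each library, affected the peak numbers was not tested.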
